A study of Mus musculus with 9 samples.

Results

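The genes described here encode the mitochondrial enzymes that carry a fatty acyl-CoA from hydration to cleavage: Hadha and Hadhb, Echs1, Hadh, Acaa2, Eci1 and Decr1. They were taken by gene symbol from the annotation of the arrays, which assigned them 14 probe sets, and they make up 7 of the 18193 genes that could be named and tested. Each probe set is a group of short probes that gives 1 intensity value per array.

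RNA of liver was measured on single-colour Affymetrix arrays, 1 array per sample, in 4 db/db samples and 5 BKS samples. The db/db mice (BKS.Cg-Leprdb) carry a mutant leptin receptor gene in all tissues and have obesity and diabetes with a fatty liver at this age, per the study's design. The controls (C57BL/KSlepr+/+, BKS) were littermates with the intact receptor gene, and both groups were male, 14 weeks old and fed regular chow. The labels number the samples without tying each to its own animal. The p-values therefore cover only the variation among these samples, part of which may be technical.

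Beta-oxidation shortens a fatty acyl-CoA in repeated rounds. An acyl-CoA dehydrogenase first introduces a double bond, an enoyl-CoA hydratase adds water, a hydroxyacyl-CoA dehydrogenase oxidises the product, and a thiolase splits off acetyl-CoA. Long chains are handled by the trifunctional protein of the inner mitochondrial membrane, in which the alpha subunit (Hadha) holds the hydratase and the dehydrogenase and the beta subunit (Hadhb) holds the thiolase. Shorter chains use the matrix enzymes Echs1 (hydratase), Hadh (dehydrogenase) and Acaa2 (thiolase). Unsaturated fatty acids also need the isomerase Eci1 and the reductase Decr1, which move or remove double bonds that the cycle cannot handle. In liver the acetyl-CoA feeds ketone body synthesis and the tricarboxylic acid cycle, and many of these genes are known targets of the nuclear receptor PPAR alpha.

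Hadha and Hadhb lie head to head on mouse chromosome 5, with 273 bases between their annotated starts, so the 250 bases before 1 gene largely hold the 250 bases before the other (228 bases in common). This stretch is shown because both genes that flank it were called in the comparison below. The call of Hadhb was just past the threshold and held in 1 of 9 fits with an array left out. The other probe sets of Hadhb, 1 of them dim, did not show a rise. Also shown are the stretch before Eci1, the gene with the largest change, and the stretch before Echs1. Echs1 alone of the 5 genes with an entry held a half-site of the kind that nuclear receptors bind. The sequences are from RefSeq on GRCm38.p6. They run 5′ to 3′ in the direction of the named gene and cover chr5:30155003-30155252 (plus strand) for Hadhb, chr17:24426433-24426682 (plus strand) for Eci1 and chr7:140116422-140116671 (minus strand) for Echs1. Capitals mark matches, on either strand, to GGGCGG, the core of the GC box, or to AGGTCA, the nuclear receptor half-site.
Hadhb: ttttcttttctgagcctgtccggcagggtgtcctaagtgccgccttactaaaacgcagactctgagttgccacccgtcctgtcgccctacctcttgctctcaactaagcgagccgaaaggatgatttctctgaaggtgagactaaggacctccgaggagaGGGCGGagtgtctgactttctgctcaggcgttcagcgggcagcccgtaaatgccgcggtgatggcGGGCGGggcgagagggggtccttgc
Eci1: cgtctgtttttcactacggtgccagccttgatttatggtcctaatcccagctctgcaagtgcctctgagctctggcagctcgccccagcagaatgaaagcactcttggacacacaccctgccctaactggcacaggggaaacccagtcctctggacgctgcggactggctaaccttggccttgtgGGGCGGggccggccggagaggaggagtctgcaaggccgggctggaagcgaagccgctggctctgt
Echs1: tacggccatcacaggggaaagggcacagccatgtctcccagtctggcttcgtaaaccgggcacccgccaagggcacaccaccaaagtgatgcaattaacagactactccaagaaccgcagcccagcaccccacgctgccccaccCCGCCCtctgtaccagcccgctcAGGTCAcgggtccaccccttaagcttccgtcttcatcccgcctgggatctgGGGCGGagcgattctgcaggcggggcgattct

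Of the 7 genes 5 had an entry in the RefSeq promoter table used here. GGGCGG had 1 match before Hadha, 2 before Hadhb, 2 before Hadh, 2 before Echs1 and 1 before Eci1, and 32.7% of the 32851 stretches in that table held it. The match before Hadha and 1 of those before Hadhb are the same site, in the 228 bases that both stretches hold. The 5 stretches are therefore not all separate. AGGTCA had 1 match, before Echs1, and 14.0% of all stretches held it. The direct repeat of that half-site with 1 base between the copies, which contains the half-site, had no match in the 5 stretches and was found in 0.0335% of all. A lack of a match says only that these letters are not in these windows.

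The deposited intensities were transformed as log2(intensity + 16) and quantile normalized. All values below are on that log2 scale unless they are called folds. The arrays fell into 2 sets by the signal of the control probe sets for 18S ribosomal RNA, which was 12.5 to 22.8 on 5 arrays (db/db 1 and 2, BKS 1, 2 and 3) and 941 to 6922 on the other 4 (db/db 3 and 4, BKS 4 and 5). On the high 18S arrays the beta-actin signal at the 3′ end exceeded that at the 5′ end by 1.67 to 2.57, against 0.70 to 1.73 on the low 18S arrays, the highest of these on BKS 1. By genotype this 3′ over 5′ difference was 0.70 to 1.99 in db/db and 0.75 to 2.57 in BKS. For Gapdh it was -0.32 to 0.12 in db/db and -0.18 to 0.82 in BKS, where BKS 1 (0.61) and BKS 4 (0.82) lay above every db/db array. All 7 hepatocyte markers were measured and none was called, with a summed normalised intensity of 246320 to 272609 in db/db and 269082 to 281348 in BKS. Of the 7, 4 had a negative and 3 a positive change. Apoa1 was lower on all db/db arrays than on all BKS arrays (-0.38, SE 0.15, limma adjusted p = 0.179). Hnf4a stood at -0.35 (SE 0.12, adjusted p = 0.125). The other sums were 2868 to 6306 in db/db and 4267 to 11040 in BKS for 6 macrophage markers, and 234 to 569 in db/db and 308 to 937 in BKS for 5 T and B cell markers. For 6 stellate cell markers the sum was 3127 to 4287 in db/db and 2393 to 4403 in BKS, and for 6 endothelial markers 1629 to 3546 in db/db and 1749 to 3522 in BKS. For 4 cholangiocyte markers it was 281 to 577 in db/db and 518 to 667 in BKS, and for 3 adipocyte markers 50.4 to 218 in db/db and 50.4 to 209 in BKS. No marker was listed at 0 and none was called, while with the 18S set as a block 1 macrophage and 1 cholangiocyte marker fell and 1 stellate cell and 1 endothelial marker rose. Their part in the results was not tested. In whole liver, fewer cells of a type and less RNA per cell cannot be told apart.

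In db/db livers 4 of the 7 genes rose and none fell: the isomerase Eci1 (1.76-fold), both subunits of the trifunctional protein, Hadha (1.48-fold) and Hadhb (1.33-fold), and the thiolase Acaa2 (1.27-fold). "Rose" is used for genes with a Benjamini-Hochberg adjusted p under 0.05 over all 18193 genes in limma. Over all genes 2.89% rose and 2.6% fell (5.49% in either direction), and 11.3% rose among the 697 genes at least as bright as Eci1, the dimmest of the 7. Hadh, Echs1 and Decr1 had log2 fold changes of 0.33, 0.37 and 0.24 and did not pass. All 7 changes were positive, as were 49.7% over all genes. The median log2 fold change of the 7 genes was 0.37, against -0.0022 over all genes. After normalization all db/db arrays lay above all BKS arrays in 5 of the 7 genes, which held for 4.73% of all genes (9.15% had groups apart in either direction). In the deposited intensities the groups of Acaa2 and Decr1 overlapped. With the 18S set as a block 4 of the 7 rose as well, the same 4, while 4.11% of all genes did.

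**Figure D1:**
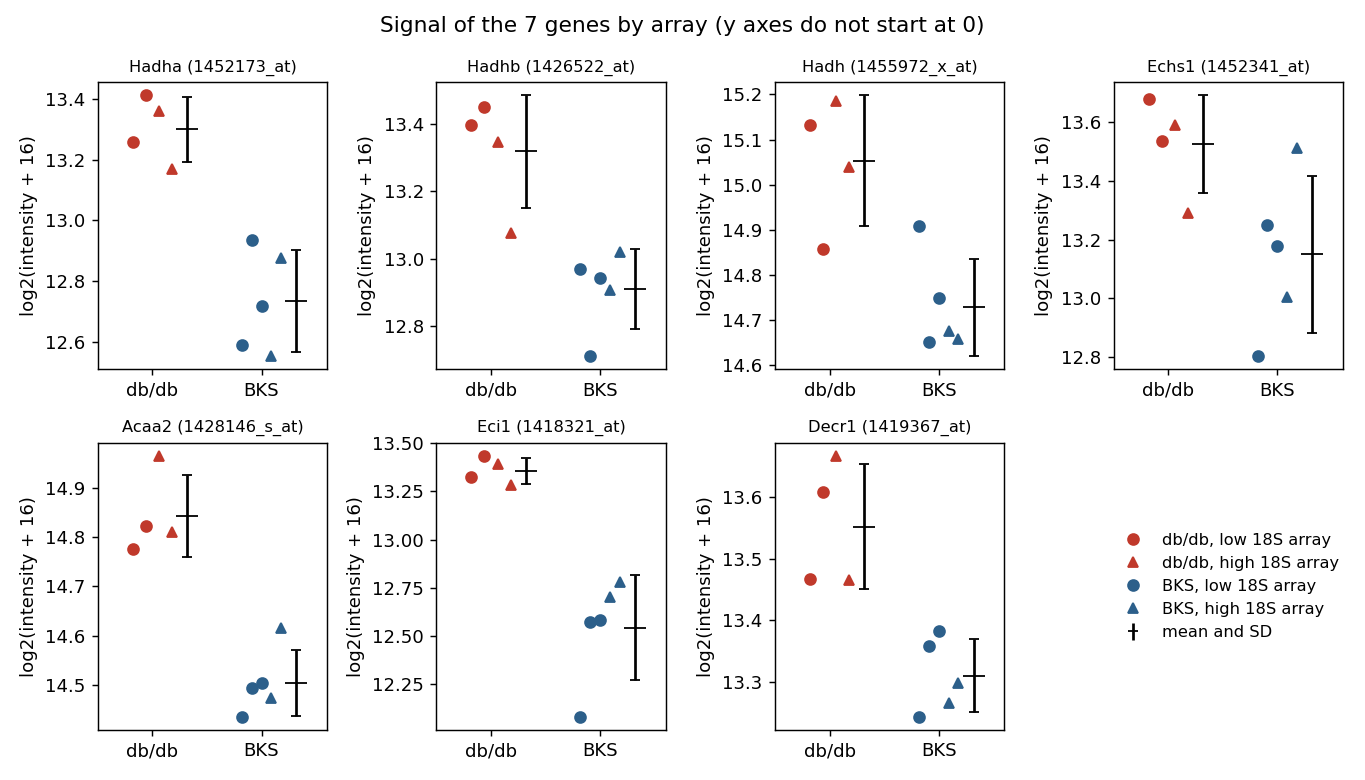
Normalised log2(intensity + 16) of the 7 genes on each array, with 4 db/db arrays on the left and 5 BKS arrays on the right of each panel. Circles are low 18S arrays, triangles high 18S arrays, and bars show the mean and SD. The groups overlap in Hadh and Echs1 and are separate in the other 5 panels.

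Eci1, which moves a double bond to the position that the hydratase can use, stood at 13.32, 13.43, 13.39 and 13.28 on db/db 1 to 4, against 12.08, 12.57, 12.58, 12.70 and 12.78 on BKS 1 to 5. The db/db arrays lay close together, and BKS 1 was far below the other BKS arrays. The mean was 13.36 ± 0.07 in db/db and 12.54 ± 0.27 in BKS (SD, n = 4 and 5), a log2 fold change of 0.81 (SE 0.13, limma adjusted p = 0.00268). Left out in turn, no array ended the call, and the change ran from 0.70 to 0.87. It was 0.97 within the low and 0.60 within the high 18S arrays.

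Decr1, the reductase for double bonds at even positions, was represented by a bright probe set with 13.47, 13.61, 13.67 and 13.47 in db/db and 13.24, 13.36, 13.38, 13.27 and 13.30 in BKS. The lowest db/db array stood just above the highest BKS array on this normalised scale. In the deposited intensities db/db 1 (10620) lay below BKS 4 (11345). The normalised difference of 0.24 (SE 0.09) did not pass (limma adjusted p = 0.179). The other probe set of Decr1 had 11.07, 11.11, 11.00 and 11.05 in db/db and 10.60, 10.43, 10.69, 10.62 and 10.59 in BKS. Here the groups were farther apart, by 0.47 (SE 0.12), with an adjusted p of 0.0546 over 45037 probe sets in limma, and of 0.0231 with the 18S set as a block.

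Hadha, the subunit with the long-chain hydratase and dehydrogenase, had 13.26, 13.41, 13.36 and 13.17 in db/db, against 12.59, 12.93, 12.72, 12.55 and 12.88 in BKS. All db/db arrays were higher than all BKS arrays. The mean was 13.30 ± 0.11 in db/db and 12.73 ± 0.17 in BKS (SD, n = 4 and 5), with a log2 fold change of 0.57 (SE 0.11, limma adjusted p = 0.00886). The change was 0.59 within the low and 0.55 within the high 18S arrays, and the call held with each array left out (adjusted p up to 0.0354).

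Hadhb, the subunit with the long-chain thiolase, had 13.40, 13.45, 13.35 and 13.08 in db/db and 12.97, 12.71, 12.94, 12.91 and 13.02 in BKS. Only db/db 4 came close to the BKS arrays. Its log2 fold change of 0.41 (SE 0.11) was just past the threshold (limma adjusted p = 0.0476). The call was lost in 8 of the 9 fits that left out 1 array, all but the one without db/db 4, with an adjusted p of 0.0257 to 0.127 over the 9 fits. The change was 0.55 within the low and 0.25 within the high 18S arrays. The other probe sets of Hadhb did not show it: 1437172_x_at had a log2 fold change of -0.32 (SE 0.35) and 1442732_at of -0.33 (SE 0.40), both with overlapping groups (limma adjusted p = 0.779 and 0.813). However, 1442732_at was dim, with deposited intensities of 50.3 to 281.5 where array medians were 67.4 to 110.8, so it says little about Hadhb. The x in a probe set's name marks probes that may also bind other transcripts.

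The ratio of Hadha to Hadhb, the 2 subunits of 1 enzyme, was compared within arrays. The log2 difference between their signals was -0.14, -0.04, 0.01 and 0.09 in db/db and -0.38, 0.22, -0.23, -0.36 and -0.14 in BKS. The groups overlapped, and the change of 0.16 (SE 0.12) did not pass (exact permutation test, two-sided, p = 0.262, adjusted p = 0.655 over 5 ratios). The smallest p this test can give with 4 against 5 arrays is 0.0159. Over 5 ratios, 1 ratio with fully separate groups would reach an adjusted p of only 0.0794. The test could therefore not single out this ratio, and no conclusion is drawn from its result.

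Echs1, the hydratase for short chains, had 13.68, 13.53, 13.59 and 13.29 in db/db and 12.80, 13.25, 13.18, 13.00 and 13.51 in BKS. BKS 5 stood among the db/db arrays and db/db 4 near the BKS arrays. The log2 fold change of 0.37 (SE 0.14) did not pass (limma adjusted p = 0.168) and was 0.53 within the low and 0.18 within the high 18S arrays.

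Hadh, the dehydrogenase for medium and short chains, gave different answers on its 3 probe sets. The brightest, 1455972_x_at, which stands for the gene in the count above, had 15.13, 14.86, 15.19 and 15.04 in db/db and 14.91, 14.65, 14.75, 14.68 and 14.66 in BKS. The groups overlapped through db/db 2 and BKS 1, and the change of 0.33 (SE 0.10) did not pass (limma adjusted p = 0.1000). On 1460184_at the signals were 14.08, 14.11, 14.25 and 14.05 in db/db and 13.22, 13.54, 13.48, 13.21 and 13.45 in BKS. These groups were clearly apart, by 0.74 (SE 0.11, a 1.67-fold rise, limma adjusted p = 0.00182 over all probe sets), by 0.68 within the low and 0.82 within the high 18S arrays. The call held with each array left out and was lost with median centring in place of quantile normalization (adjusted p = 0.174). The dimmer 1436756_x_at had 10.82, 8.27, 10.54 and 10.63 in db/db and 9.14, 8.95, 9.23, 9.58 and 9.48 in BKS. There db/db 2 lay below every BKS array while the other db/db arrays lay above all of them, and the change of 0.79 (SE 0.41) did not pass with all arrays (adjusted p = 0.448).

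Acaa2, the thiolase for medium chains, had 14.78, 14.82, 14.96 and 14.81 in db/db and 14.44, 14.49, 14.50, 14.47 and 14.62 in BKS on its brightest probe set. These normalised groups did not overlap, while in the deposited intensities db/db 1 (22638) lay below BKS 4 (29952). The log2 fold change of 0.34 (SE 0.09) was at the edge of the threshold (limma adjusted p = 0.0497), and the call was lost in all 9 fits that left out 1 array (0.0569 to 0.151). It was 0.32 within the low and 0.34 within the high 18S arrays. The other probe sets stood at 0.39 (1428145_at, SE 0.15, adjusted p = 0.245) and 0.68 (1455061_a_at, SE 0.19, adjusted p = 0.0827).

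**Figure D2:**
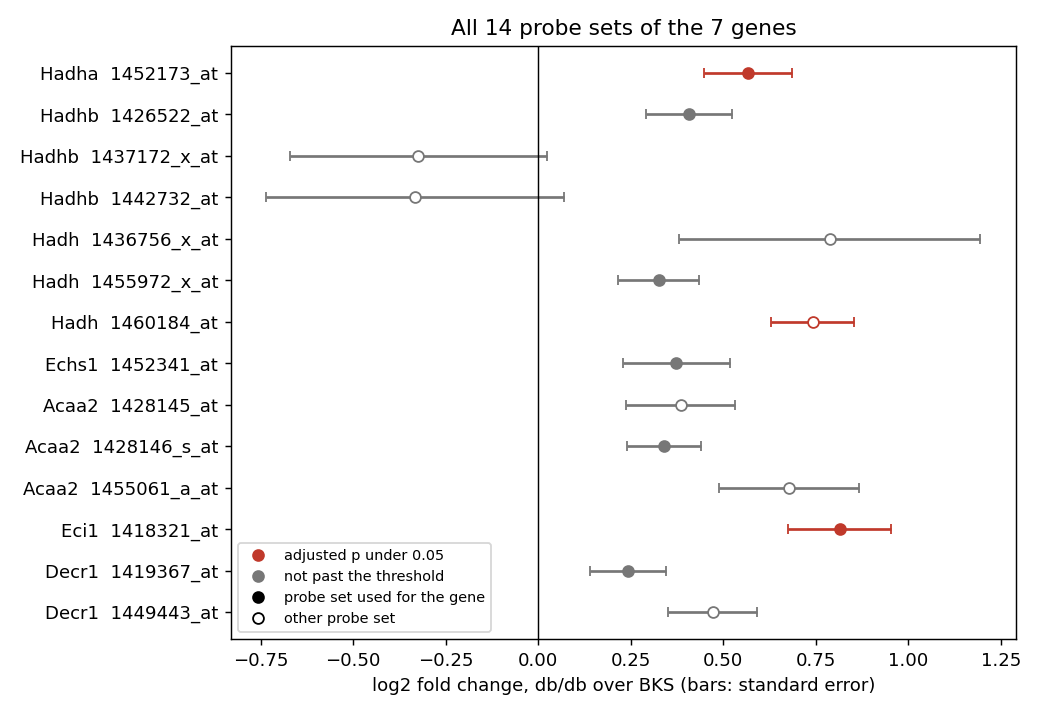
Log2 fold change of db/db over BKS, with its standard error, for all 14 probe sets in a limma fit over 45037 probe sets. Red marks an adjusted p under 0.05 and a filled circle the probe set used for the gene. Of the 14, 12 lie above 0, and the 2 below 0 are the other probe sets of Hadhb, of which 1442732_at was dim.

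Counted by probe set, 3 of 14 rose, 1 each of Hadha, Hadh and Eci1, while 1.58% of all probe sets did. In this fit the call of Hadha held in 6 of 9 fits with an array left out (adjusted p 0.0144 to 0.0707), and that of Eci1 in all 9. With the 18S set as a block 6 of 14 rose, each of a different gene (Hadha, Hadhb, Hadh, Acaa2, Eci1 and Decr1), against 2.61% of all probe sets. Thus Echs1 was the only one of the 7 genes with no probe set past the threshold in either fit, and no probe set fell. After normalization all db/db arrays lay above all BKS arrays in 8 of the 14, which held for 3.49% of all probe sets. Some of these overlapped in the deposited intensities, as given above for Acaa2 and Decr1.

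Averaged over the 7 genes, each centred on its own mean, the signal was 0.26, 0.27, 0.32 and 0.13 on db/db 1 to 4 and -0.32, -0.18, -0.17, -0.24 and -0.07 on BKS 1 to 5. The db/db arrays were all higher. Among the arrays of a genotype, db/db 4 and BKS 1 were lowest, and BKS 5 was the highest BKS array. The lowest arrays of all, BKS 1 and BKS 4, were also those with the highest Gapdh 3′ over 5′ difference, whose part in the result was not tested. The 8 genes whose profile over the 9 arrays was most like this average, out of 690 genes at least as bright, were Slc25a5, Ahcy, Atg3, Ddt, Dgat2, Bbox1, Idh3b and Hsd17b4. Their root mean square difference from it was 0.06 to 0.09 log2 units, against a median of 0.28 over the 690. The 7 genes themselves differed from their average by 0.07 (Acaa2) to 0.23 (Eci1). The 8 genes were chosen with the step between genotypes in the average (0.44) included, so fold changes near it follow from the choice. Slc25a5, an ADP/ATP carrier of the inner mitochondrial membrane, was closest, with a log2 fold change of 0.46, though its 8 probe sets ranged from -0.06 to 0.72. Next in rank came Ahcy at 0.34, Atg3 at 0.37 (other probe set -0.01), Ddt at 0.38 and Dgat2 at 0.35 (other probe set 1.07). Bbox1, which makes carnitine, stood at 0.49, and Hsd17b4, the peroxisomal hydratase and dehydrogenase, at 0.40. Idh3b, a subunit of isocitrate dehydrogenase, was at 0.38, with its other probe sets at -0.06 and 0.58.

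The calls depended on the scaling of the arrays. With median centring in place of quantile normalization none of the 7 genes was called (limma, 7 of 7 positive), and with the authors' scaling alone 2 were, Hadha and Eci1. The share of all genes called with the authors' scaling is not given here, so the 2 cannot be set against it. Fitted alone, the low 18S arrays (2 db/db, 3 BKS) gave 1 called gene, Eci1, and the high 18S arrays (2 against 2) none, with medians of 0.53 (low) and 0.34 (high).

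The steps before these enzymes were counted in the same fit. Of 5 genes of the carnitine shuttle, which brings long chains into mitochondria, 4 rose and none fell (median log2 fold change 0.64). This count depended on the probe set: with the most variable probe set of each gene 0 rose (limma, 3 at an unadjusted p under 0.05), with the mean over probe sets 2, and without the eBayes trend 1. They included the carnitine importer Slc22a5 (1.00, SE 0.17, limma adjusted p = 0.00362), the inner transferase Cpt2 (0.64, SE 0.11, adjusted p = 0.00412) and the outer transferase Cpt1a (0.50, SE 0.13, adjusted p = 0.0386). The call of Cpt1a held in 1 of 9 fits with an array left out, the one without BKS 2 (adjusted p 0.0220 to 0.121 over the 9), and its other probe sets stood at 0.10 and 0.13. The second probe set of Cpt2 stood at 0.00. Of 8 genes for acyl-CoA dehydrogenases and the flavoproteins that take their electrons, 4 rose and none fell (median 0.48). Acadm, for medium chains, was at 0.51 (SE 0.09, adjusted p = 0.00571), Etfdh, which passes the electrons to ubiquinone, at 0.77 (SE 0.17, adjusted p = 0.0145), and Acadl, for long chains, at 0.58 (SE 0.13, adjusted p = 0.0219). Etfdh missed the threshold without db/db 3 or db/db 4 (adjusted p up to 0.0584), and Acadl without BKS 1, db/db 3 or db/db 4 (up to 0.0837). Their second probe sets stood at 0.54 (Etfdh, SE 0.37) and 0.23 (Acadl, SE 0.57), and neither passed.

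Among 8 other mitochondrial relatives of the hydratase, isomerase, dehydrogenase and thiolase enzymes 3 rose and none fell (median 0.29). Ech1, an isomerase for dienoyl-CoA in mitochondria and peroxisomes, stood at 14.28, 14.46, 14.46 and 14.25 in db/db and 13.52, 13.75, 13.74, 13.56 and 13.35 in BKS. It rose by 0.78 (SE 0.11, limma adjusted p = 8.93e-04), and the groups did not overlap. Hsd17b10, a dehydrogenase of branched-chain and steroid substrates, rose by 0.79 (SE 0.14, adjusted p = 0.00549) and Echdc3, an enoyl-CoA hydratase-like protein, by 0.76 (SE 0.12, adjusted p = 0.00213). These 3 calls held with each array left out.

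Peroxisomes carry out the same reactions with their own enzymes, and 4 of 9 such genes rose while none fell (median 0.57). Eci2, an isomerase found in peroxisomes and mitochondria, had 13.14, 13.28, 13.23 and 13.12 in db/db and 12.43, 12.11, 12.00, 12.52 and 12.16 in BKS, a rise of 0.95 (SE 0.12, limma adjusted p = 4.52e-04). Its relative Eci3 had 8.45, 9.27, 9.93 and 9.17 in db/db, against 4.94, 6.01, 6.05, 5.24 and 6.31 in BKS, where it was dim, and rose by 3.49 (SE 0.38, adjusted p = 1.31e-04). The thiolase Acaa1b rose by 0.57 (SE 0.10, adjusted p = 0.00412), while its near copy Acaa1a stood at 0.10 (SE 0.30, adjusted p = 0.913) on the probe set used and at 0.67 (SE 0.41) on its other one. With an array left out the value of Acaa1a ran from -0.28 (without db/db 2) to 0.32 (without db/db 3), and probes may be shared between these 2 genes. Hsd17b4 rose by 0.40 (SE 0.10, adjusted p = 0.0376), a call that held in 1 of 9 fits with an array left out, the one without BKS 5 (0.0485 to 0.100). The bifunctional enzyme Ehhadh was at 0.60 (SE 0.20, adjusted p = 0.110), with db/db 3 at 14.18 and the other db/db arrays at 13.05 to 13.21. The reductase Decr2 stood at 1.15 (SE 0.32, adjusted p = 0.0545, passing at 0.0387 without BKS 2 and at 0.0177 without BKS 5), and Scp2 and Pecr, a sterol carrier with thiolase activity and an enoyl-CoA reductase, at -0.02 and 0.11 (adjusted p = 0.936 and 0.631).

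The mitochondrial genes were also set against the peroxisomal enzyme of the same kind within each array. With 5 ratios, 1 ratio with fully separate groups would reach an adjusted p of only 0.0794, so these tests could not single out 1 ratio. The log2 difference of Decr1 from Decr2 was 0.83, 0.99, 1.26 and 1.56 in db/db and 3.10, 1.52, 2.21, 2.29 and 1.20 in BKS. It was lower by 0.90 on average in db/db with overlapping groups (a change of -0.90, SE 0.37, exact permutation test, two-sided, p = 0.0714, adjusted p = 0.357 over 5 ratios). For Eci1 against Eci2 the change was -0.13 (SE 0.18, p = 0.619, adjusted p = 0.774), for Hadha against Ehhadh -0.04 (SE 0.26, p = 0.913, adjusted p = 0.913) and for Acaa2 against Acaa1a 0.24 (SE 0.46, p = 0.571, adjusted p = 0.774), by the same exact test. Within the 18S sets the change of Decr1 against Decr2 was -1.37 (low) and -0.33 (high). Acaa2 against Acaa1a stood at -0.31 within the low and 0.74 within the high 18S arrays, and Hadha against Ehhadh at 0.24 and -0.28.

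**Figure D3:**
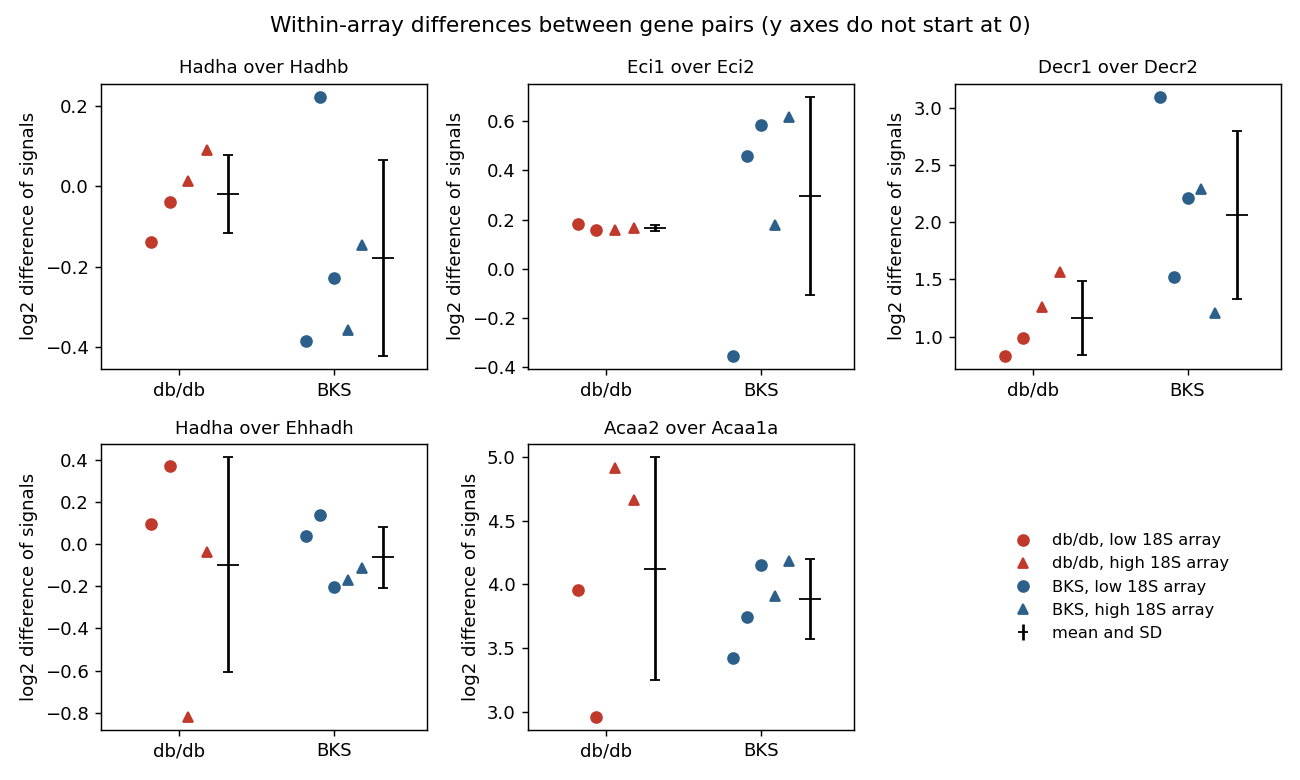
Log2 difference between the signals of 2 genes on the same array, for the 5 pairs tested, with 4 db/db arrays on the left and 5 BKS arrays on the right of each panel. Only changes between groups can be read, since levels of different probe sets are not comparable. All 5 pairs overlap between groups, and the 4 db/db values of Eci1 over Eci2 lie between 0.157 and 0.182.

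Of 9 PPAR alpha targets outside beta-oxidation 5 rose and none fell (median 1.21), among them Retsat, the retinol saturase (1.21, SE 0.14, limma adjusted p = 2.17e-04), Acot1, a thioesterase (2.20, SE 0.29, adjusted p = 6.04e-04), and Vnn1, a pantetheinase (2.08, SE 0.28, adjusted p = 6.04e-04). None of 6 listed regulators passed (limma, 2 at an unadjusted p under 0.05, and 2 rose with the 18S set as a block). The list held PPAR alpha, a partner receptor, coactivators and other transcription factors. Ppara itself was at 0.54 (SE 0.21, adjusted p = 0.170), and at an adjusted p of 0.0265 with the block. Its other probe sets stood at 0.62 (SE 0.16, limma adjusted p = 0.0570 over all probe sets) and 0.60 (SE 0.43, adjusted p = 0.633), and neither passed. Of the ketone body list only Bdh1, the dehydrogenase that makes hydroxybutyrate, was analysed here, at 0.53 (SE 0.15, adjusted p = 0.0614, and 0.0193 with the block).

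Among 14 mitochondrial proteins of other kinds, listed to show levels outside fatty acid oxidation, 2 rose and none fell, with a median log2 fold change of 0.16. These were Sdhb of complex II (0.46, SE 0.10, limma adjusted p = 0.0120) and Mdh2, malate dehydrogenase (0.58, SE 0.16, adjusted p = 0.0459). The call of Mdh2 held in 2 of 9 fits with an array left out, those without BKS 1 or db/db 1 (adjusted p 0.0296 to 0.119), and its second probe set stood at 0.25. With median centring the counts of genes that rose were 1 of the carnitine shuttle, 0 of the acyl-CoA dehydrogenase list (limma, 4 at an unadjusted p under 0.05), 1 of the other mitochondrial relatives, 2 of the peroxisomal genes, 5 of the PPAR alpha targets and 0 of these 14 proteins (2 at an unadjusted p under 0.05). No test of the difference between this list and the 7 genes was made.

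**Figure D4:**
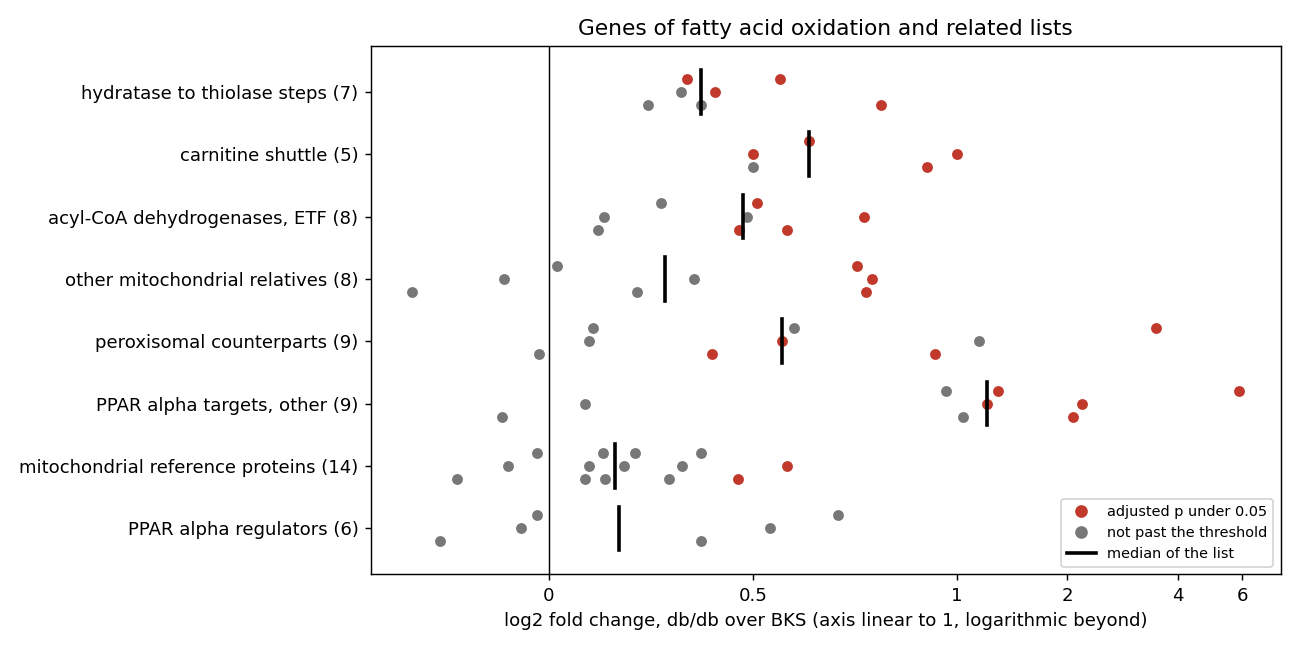
Log2 fold change of db/db over BKS for each gene of the lists, with the number measured in brackets. Red points have an adjusted p under 0.05 and black bars are medians, 0.37 for the hydratase to thiolase genes and 0.16 for the mitochondrial reference proteins. The axis is linear up to 1 and logarithmic beyond.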

How the data were processed

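Liver RNA (8 µg per sample from 100 mg aliquots) was hybridised to single-colour Affymetrix arrays, per the labels' protocols. The deposited values are linear intensities per probe set and array. Their mean after trimming 2% at each end was 500.003 to 500.005 on every array, so the authors scaled the arrays to a common level. The software and the background correction are not given in the sources used, and no detection calls were used. The number of arrays limits the precision.

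Columns were matched to samples by name (5 BKS, 4 db/db). Values were transformed as log2(intensity + 16), and since array medians then spanned 0.60 (limit 0.25) quantile normalization was applied (R 4.3.3, limma 3.58.1). Of 45101 probe sets 34945 had 1 gene symbol, 932 several and 9160 none, and 64 were controls. Each gene was represented by its probe set with the highest mean, which was kept in all alternatives except those on this choice. Genes were tested with lmFit and eBayes (trend on mean intensity, two-sided p, Benjamini-Hochberg over 18193 genes, threshold 0.05), and probe sets likewise over 45037. Ratios within arrays were tested with exact permutation tests. The fits were tested on simulated data.

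Members, gene lists and tests were chosen with earlier results of these data known. Named are the 7 genes, the peroxisomal counterparts, Ppara, up to 3 called genes per direction with the smallest adjusted p from each other list, and the 8 genes nearest in profile. Bdh1 was added because it alone was analysed in its list, after its values were seen. Some genes of the lists are not reported here.

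Alternatives changed 1 choice at a time: pseudocount, scaling, probe set, dim genes, eBayes settings, the 18S set or the replicate number as a block, and each array left out. The arrays were split at the largest gap in the 18S signal. Each 18S set alone, and the alternatives for single probe sets and named genes outside the 7, were added after seeing the data.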

Additional observations from a re-analysis of the deposited data

Results flagged for a closer look

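Single arrays stood apart from the others of their genotype, by Dixon's criterion, in 5 of 100 groups of values examined, and chance gives about 1 in 20. On the Hadh probe set 1436756_x_at, db/db 2 was at 8.27 and the next db/db array at 10.54. Echdc3 was at 12.07 on db/db 1, just below 12.17 on the next db/db array. Ehhadh was at 14.18 on db/db 3, against 13.21 on the next db/db array. Ppara was at 13.03 on db/db 1, against 12.48 on the next. Among BKS arrays, Hsd17b4 was at 13.23 on BKS 1, against 13.54 on the next. Without db/db 2 the Hadh probe set 1436756_x_at had a log2 fold change of 1.39 (limma adjusted p = 0.00138), against 0.79 with all arrays. It passed in only this 1 of the 9 fits with an array left out (adjusted p up to 0.703, change down to 0.54). The array was picked from these same values, so no conclusion is drawn from the smaller p.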

How the results depend on the processing

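All 7 genes kept a positive change in all 23 fits made of each, apart from Hadhb under both other choices of probe set. It stood at -0.324 where the most variable probe set was used and at -0.083 for the mean over probe sets, which includes the dim 1442732_at. Eci1 lost its call in 2 of them, median centring and the high 18S arrays alone. With median centring 535 genes were called in place of 999 (323 higher and 212 lower in db/db), 0 of the 7 (limma, 3 at an unadjusted p under 0.05), and the median of the 7 was 0.46. With the authors' scaling alone 2 of the 7 were called. The probe set of largest variance gave 630 genes (260 lower), 2 of the 7 and a median of 0.57, and the mean over probe sets 273 lower genes and a median of 0.47. Without the trend in eBayes there were 466 genes (254 higher, 212 lower) and 1 of the 7. The 18S block gave 751 lower genes. With the replicate number as a block 2 of the 7 were called. The share of all genes called is not given for this setting or for the authors' scaling, and no conclusion is drawn from these counts. The low 18S arrays alone gave 409 genes (209 and 200), 1 of the 7 and a median of 0.53, and the high 18S arrays 495 (258 and 237) and 0 of the 7 (4 at an unadjusted p under 0.05). With each array left out in turn the count of genes ran from 592 (without db/db 3) to 929 (309 to 519 higher, 283 to 434 lower), that of the 7 from 2 to 3, and their median from 0.33 to 0.45. The ratios ran from 0.11 to 0.26 for Hadha over Hadhb, -0.29 to -0.05 for Eci1 over Eci2, -1.12 to -0.65 for Decr1 over Decr2, -0.19 to 0.20 for Hadha over Ehhadh (0.02 without BKS 2, 0.20 without db/db 3) and -0.03 to 0.64 for Acaa2 over Acaa1a (-0.027 without db/db 3). Fewer arrays were used in these fits. For the other alternatives the cause was not tested. Deviations of equally numbered samples from their group means correlated at -0.07 to 0.17, so the numbers were not taken as pairs.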

Other observations

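The log2 difference between Eci1 and Eci2 was 0.182, 0.157, 0.158 and 0.165 on the db/db arrays (SD 0.01) and -0.36, 0.46, 0.59, 0.18 and 0.62 on the BKS arrays (SD 0.40). The difference in spread was noticed after the values were seen and was not tested.

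Probe sets of 1 gene differed in how far they moved. For Hadh they stood at 0.33, 0.74 and 0.79, for Acaa2 at 0.34, 0.39 and 0.68, for Decr1 at 0.24 and 0.47 and for Hadhb at 0.41, -0.32 and -0.33 (the last on a dim probe set). In Hadh, Acaa2 and Decr1 the brightest probe set had the smallest change of its gene. The cause was not tested.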
